A study of Triticum turgidum subsp. durum with 12 samples.

Results

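The 4 *RADIALIS*-like genes described here form 2 homeolog pairs of tetraploid wheat, TraesCS6A01G273200 with TraesCS6B01G300600 and TraesCS7A01G233300 with TraesCS7B01G131600. They were taken by their identifiers, as the *RADIALIS*-like MYB genes that the study names in its text, and are 4 of the 72120 genes in the deposited count table. The study named the chromosome 7 pair for changes in the same short-day libraries alone. It named the chromosome 6 pair for changes in these and in separate long-day libraries. The direction of all 4 genes here is therefore not independent evidence. RNA-seq was carried out on leaves of *phyB*-null, *phyC*-null and WT plants of the durum wheat variety Kronos (*Ppd-A1a*), with 4 biological replicates per genotype and 12 libraries in all. The *phyB*-null and *phyC*-null lines each carry EMS-induced loss-of-function mutations in both homeologs of one phytochrome gene, in a Kronos background, and 1 WT genotype served as the control for both. All plants grew under short days of 8 h light and 16 h dark, at 20 °C by day and 18 °C by night, and were sampled at 8 weeks. The labels call the tissue the third leaf in one field and the youngest fully expanded leaf in another. At sampling the apices of WT plants had begun to form a spike while those of both mutants were vegetative, so genotype and stage cannot be told apart in these libraries.

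RADIALIS proteins are small plant transcription regulators with a single MYB domain. In snapdragon (*Antirrhinum majus*), RADIALIS specifies the upper side of the flower and opposes DIVARICATA, a MYB protein with more than one such domain, by competing for the partner proteins that DIVARICATA needs. In tomato, the related FSM1 acts in the same competitive way on cell expansion in the young fruit. Phytochromes are the red and far-red light receptors of plants, and *PHYB* and *PHYC* take part in the light control of flowering in wheat.

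Transcript levels of all 4 genes were lower in both mutants than in WT, and no mutant library reached the level of any WT library. Such a separation of libraries below WT was seen for 11.7% of all genes in *phyB*-null and 4.64% in *phyC*-null, by counts scaled to library size. Relative to WT, levels were between 4.001-fold and 18.9-fold lower in *phyB*-null and between 4.60-fold and 15.2-fold lower in *phyC*-null, by the fold changes fitted to the counts. Levels per library are given as deposited TPM, which are transcript levels scaled to library size and gene length and can be set side by side between genes. In bulk leaf RNA, fewer cells that express a gene and less RNA per cell cannot be told apart.

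The A gene of the chromosome 6 pair, TraesCS6A01G273200, was the least abundant of the 4. It had 0.325, 0.182, 0.360 and 0.964 TPM in the *phyB*-null libraries, 0.787, 0.455, 2.29 and 1.13 TPM in the *phyC*-null libraries, and 11.1, 11.5, 6.86 and 9.22 TPM in the WT libraries (replicates 1 to 4). The lowest WT library therefore lay above the highest mutant library, *phyC*-null replicate 3. These levels rest on few reads in the mutants, with 20 counts over the *phyB*-null libraries and 63 over the *phyC*-null libraries, 35 of them in replicate 3, against 390 in WT.
Its B homeolog, TraesCS6B01G300600, had 2.82, 2.55, 1.71 and 4.03 TPM in the *phyB*-null libraries, 2.36, 4.82, 4.83 and 5.34 TPM in the *phyC*-null libraries, and 18.1, 31.2, 19.2 and 20.2 TPM in WT. WT replicate 2 stood above the other WT libraries, and the mutants overlapped each other but not WT.
The A gene of the chromosome 7 pair, TraesCS7A01G233300, had 5.71, 2.71, 4.03 and 5.74 TPM in the *phyB*-null libraries, 2.26, 2.08, 2.85 and 1.37 TPM in the *phyC*-null libraries, and 15.4, 23.9, 18.7 and 19.4 TPM in WT. Here *phyC*-null was the lower of the mutants, with an overlap between *phyB*-null replicate 2 and *phyC*-null replicate 3.
Its B homeolog, TraesCS7B01G131600, was the most abundant of the 4 in WT and among the lower ones in the mutants. It had 2.44, 2.46, 2.23 and 1.87 TPM in the *phyB*-null libraries, 2.55, 1.43, 2.20 and 1.27 TPM in the *phyC*-null libraries, and 30.2, 39.2, 29.3 and 27.4 TPM in WT. WT replicate 2 had the highest WT level of each of the 4 genes.

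**Figure D1:**
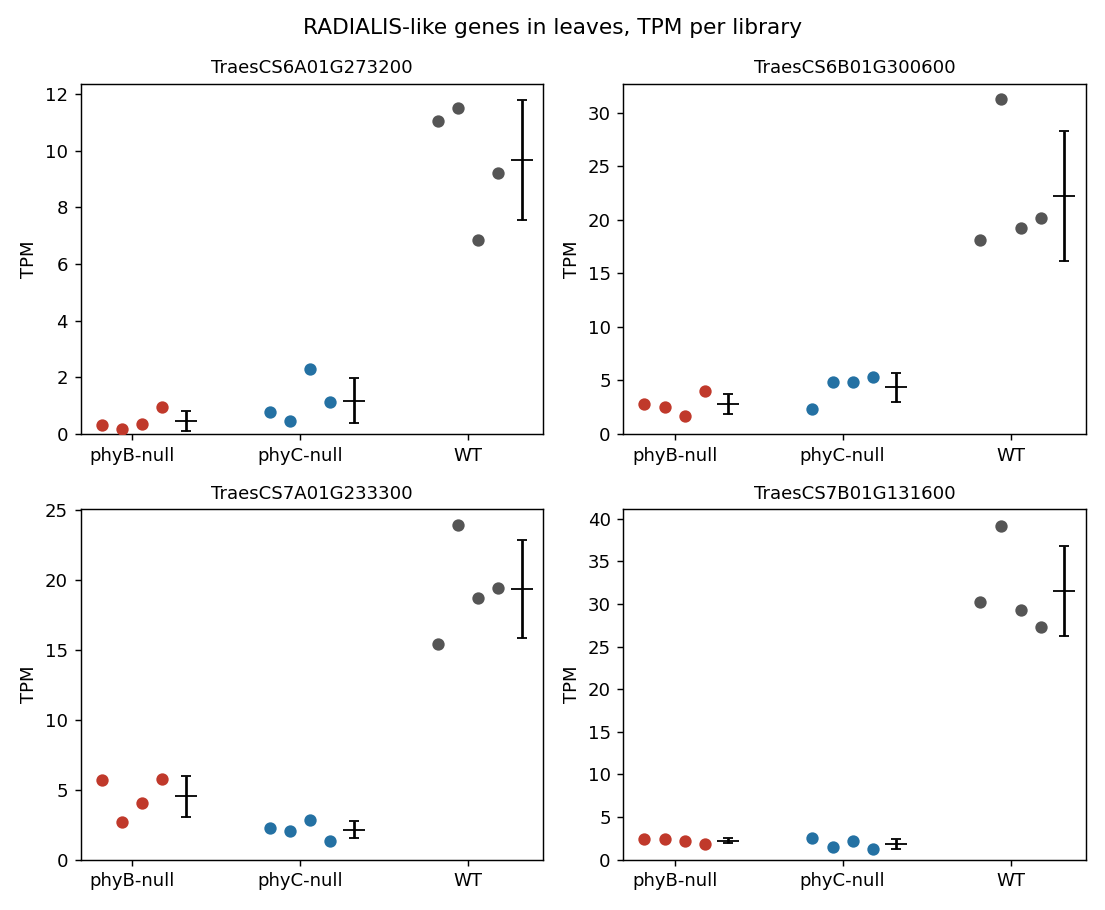
Deposited TPM (vertical axis, linear, from 0) of the 4 *RADIALIS*-like genes in the *phyB*-null, *phyC*-null and WT libraries. Points are libraries in the order of replicates 1 to 4, and the bar beside them gives the mean and SD (n = 4). In each panel every WT point lies above every mutant point, and the *phyB*-null and *phyC*-null points overlap in height.

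In *phyB*-null, all 4 genes were called lower than in WT, where 5.95% of all genes tested were called lower (11.9% in either direction). A gene was called when its Benjamini-Hochberg adjusted p, from edgeR's quasi-likelihood test over all 72120 genes, was below 0.01. The study chose the genes for such differences, so the count is a description. TraesCS6A01G273200 averaged 0.458 ± 0.346 TPM in *phyB*-null and 9.67 ± 2.12 TPM in WT (SD, n = 4 each), which gave a log2 ratio of -4.24 with a standard error of 0.38 (adjusted p = 1.09e-05, edgeR's quasi-likelihood test). TraesCS7B01G131600 averaged 2.25 ± 0.272 TPM in *phyB*-null and 31.5 ± 5.26 TPM in WT, and its log2 ratio was -3.68 with a standard error of 0.19 (adjusted p = 1.69e-07 by the same edgeR test). TraesCS6B01G300600 averaged 2.78 ± 0.959 TPM in *phyB*-null and 22.2 ± 6.08 TPM in WT (log2 fold change -2.88, adjusted p = 9.90e-06 by the same edgeR test). The change of TraesCS7A01G233300 was the smallest of the 4, at 4.55 ± 1.46 TPM in *phyB*-null and 19.4 ± 3.51 TPM in WT (log2 fold change -2.0005, adjusted p = 4.06e-05 by the same edgeR test). The calls of all 4 genes held in each of the 18 other settings tried.

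In *phyC*-null, 3 of the 4 genes were called lower than in WT, where 0.374% of all genes tested were called lower (0.796% in either direction). The comparison uses the same WT libraries as the one above, so the values of both share any chance deviation of WT. TraesCS7B01G131600 fell to 1.87 ± 0.612 TPM in *phyC*-null, against 31.5 ± 5.26 TPM in WT, and its log2 ratio of -3.92 had a standard error of 0.28 (adjusted p = 2.34e-05, edgeR's quasi-likelihood test). TraesCS7A01G233300 fell to 2.14 ± 0.612 TPM in *phyC*-null, against 19.4 ± 3.51 TPM in WT (log2 fold change -3.004 with a standard error of 0.31, adjusted p = 0.000374 by the same edgeR test). TraesCS6B01G300600 was at 4.34 ± 1.34 TPM in *phyC*-null and 22.2 ± 6.08 TPM in WT (log2 fold change -2.20, adjusted p = 0.00293 by the same edgeR test).
TraesCS6A01G273200 was at 1.17 ± 0.797 TPM in *phyC*-null and 9.67 ± 2.12 TPM in WT. Its log2 fold change of -2.79 (95% interval -3.85 to -1.73) had an adjusted p of 0.0118 by edgeR's quasi-likelihood test and was not called. The study's rule asked for an adjusted p below 0.01 in both DESeq2 and edgeR. With edgeR's exact test, that rule called the gene (adjusted p = 9.09e-06 by the exact test). Without *phyC*-null replicate 3, which held more than any other mutant library of this transcript, the log2 fold change was -3.63 with an adjusted p of 9.19e-05 by the same edgeR test, and 8 of the 18 other settings called the gene. The call of TraesCS6B01G300600 was lost without WT replicate 2 (adjusted p = 0.0117 by edgeR's quasi-likelihood test), *phyC*-null replicate 2 (0.0119) or *phyC*-null replicate 4 (0.0107).

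Tested directly, *phyB*-null and *phyC*-null differed past the threshold in none of the 4 genes, where 3.41% of all genes tested were called. By edgeR's quasi-likelihood test, 1 of the 4 had an unadjusted p below 0.05, and neither DESeq2 nor limma called any. The intervals show how far apart the mutants could still be. The log2 fold change of *phyB*-null over *phyC*-null was -1.46 (95% interval -2.99 to 0.07) for TraesCS6A01G273200 and -0.67 (-1.47 to 0.14) for TraesCS6B01G300600. It was positive for the other pair, at 1.01 (0.23 to 1.80) for TraesCS7A01G233300 and 0.25 (-0.55 to 1.06) for TraesCS7B01G131600. The adjusted p for TraesCS7A01G233300, the smallest of the 4, was 0.113 by edgeR's quasi-likelihood test. The chromosome 6 genes thus had the lower mean in *phyB*-null and the chromosome 7 genes had the lower mean in *phyC*-null, none of it past the threshold.

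**Figure D2:**
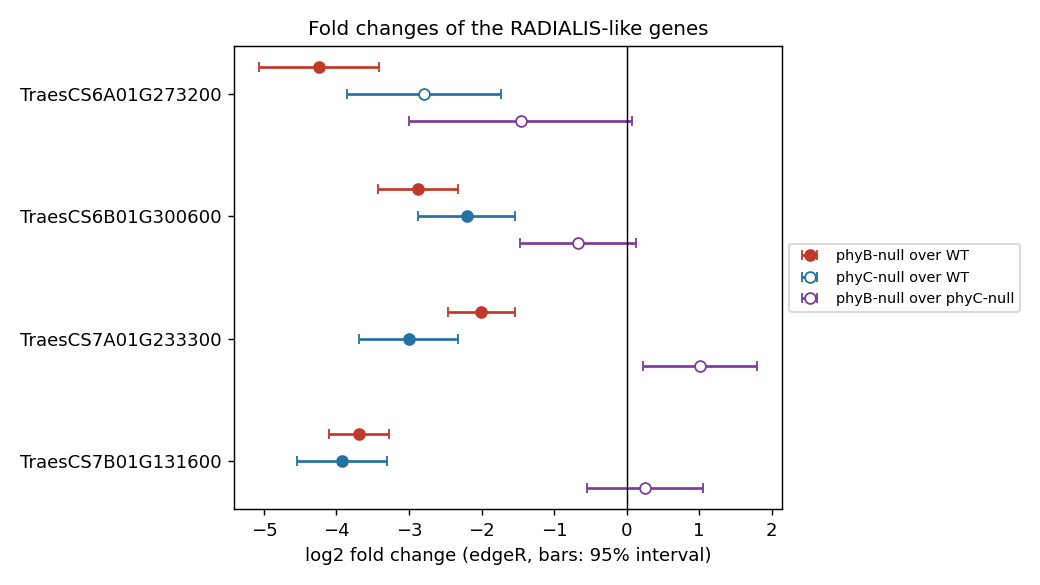
Log2 fold changes (horizontal axis) with 95% intervals from edgeR's quasi-likelihood fits for *phyB*-null over WT, *phyC*-null over WT and *phyB*-null over *phyC*-null. Filled circles were called at an adjusted p below 0.01 and open circles were not. All values against WT lie between -4.24 and -2.0005, while those between the mutants run from -1.46 to 1.01.

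The summed level of each pair restates this contrast from the same TPM values, without a further test. The chromosome 6 pair summed to 3.24 ± 1.25 TPM in *phyB*-null, 5.51 ± 1.75 TPM in *phyC*-null and 31.9 ± 7.42 TPM in WT. The chromosome 7 pair summed to 6.79 ± 1.34 TPM in *phyB*-null, 4.004 ± 1.13 TPM in *phyC*-null and 50.9 ± 8.23 TPM in WT. The ratio of the chromosome 7 pair to the chromosome 6 pair, a description chosen after the values were seen, was 1.52 to 3.02 in *phyB*-null, 0.408 to 1.53 in *phyC*-null and 1.48 to 1.84 in WT. The mutants overlapped only through *phyB*-null replicate 4, at 1.524, and *phyC*-null replicate 1, at 1.529.

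The balance between the homeologs of a pair was also compared between genotypes. The B homeolog of the chromosome 6 pair made up 86.6 ± 5.93% of the pair's TPM in *phyB*-null, 79.2 ± 10.1% in *phyC*-null and 69.4 ± 5.34% in WT (n = 4 each). The B homeolog of the chromosome 7 pair made up 34.4 ± 9.84% in *phyB*-null, 46.4 ± 5.41% in *phyC*-null and 62.0 ± 3.23% in WT. The mean B share of both mutants thus lay above that of WT for the chromosome 6 pair and below it for the chromosome 7 pair.
Each share was compared over libraries with an exact two-sided permutation test, which cannot give a p below 0.0286 with 4 libraries against 4. That smallest value was reached for *phyB*-null against WT in both pairs and for *phyC*-null against WT in the chromosome 7 pair, where no library overlapped between the genotypes. Adjusted over the 6 tests (2 pairs and 3 comparisons), it became 0.0571, short of 0.05. For the chromosome 6 pair, *phyC*-null against WT gave p = 0.143 (exact permutation test, adjusted p = 0.171), with shares of 67.9% to 91.4% in *phyC*-null and 62.1% to 73.7% in WT. Between *phyB*-null and *phyC*-null the exact permutation test gave p = 0.257 for the chromosome 6 pair and p = 0.0857 for the chromosome 7 pair (adjusted p = 0.257 and 0.129). Leaving out *phyB*-null replicate 2 brought the difference of *phyB*-null from *phyC*-null in the chromosome 7 pair (-16.4 percentage points) to the smallest p as well, and leaving out *phyC*-null replicate 3 did so for *phyC*-null against WT in the chromosome 6 pair (13.6). In both cases the adjusted p of all tests at the smallest value became 0.0429 (exact permutation tests) because 1 more of the 6 tests had reached it, which says nothing further about the others.
The shares in the mutants rest on few reads. Counts of the A homeolog of the chromosome 6 pair were between 2 and 11 in the *phyB*-null libraries and between 5 and 35 in the *phyC*-null libraries, against 75 to 110 in WT. Only uniquely mapped reads were counted, so reads that match both homeologs equally well are missing and the level of near-identical copies is uncertain to that extent.

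**Figure D3:**
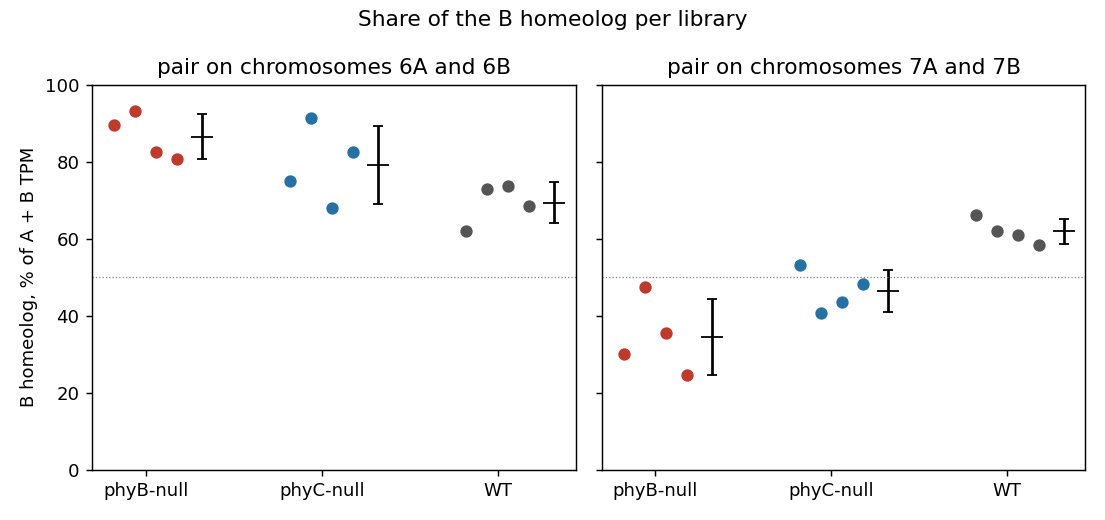
Share of the B homeolog in the summed TPM of each pair (vertical axis, percent) per *phyB*-null, *phyC*-null and WT library, with the mean and SD (n = 4) beside the points. The dotted line marks 50%. For the chromosome 6 pair the *phyB*-null shares of 80.7% to 93.3% lie above the WT shares of 62.1% to 73.7%, and for the chromosome 7 pair the *phyB*-null shares of 24.6% to 47.5% and *phyC*-null shares of 40.8% to 53.1% lie below the WT shares of 58.5% to 66.3%.

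The order of the 4 genes by level also differed between genotypes. In *phyB*-null, TraesCS7A01G233300 had the highest mean, followed by TraesCS6B01G300600, TraesCS7B01G131600 and TraesCS6A01G273200, and among neighbours in this order only the last did not overlap the gene above it. In *phyC*-null, TraesCS6B01G300600 came first and TraesCS6A01G273200 last, and each gene overlapped its neighbour. In WT the order was TraesCS7B01G131600, TraesCS6B01G300600, TraesCS7A01G233300 and TraesCS6A01G273200, where each of the first 3 overlapped the next of them and the last did not overlap. Of the genes in both the count and the TPM table, the share at a lower mean level than these 4 was 39.7% to 70.7% in *phyB*-null, 49.3% to 69.2% in *phyC*-null and 80.9% to 93.3% in WT.
Over the 12 libraries, log2 CPM (counts scaled to library size) of the homeologs had a Pearson correlation of 0.945 for the chromosome 6 pair and 0.934 for the chromosome 7 pair. Across the pairs it ranged from 0.804 to 0.894. These values describe libraries that fall into genotypes and that the genes share, so no p is given.

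The tables of the study annotate 15 other genes of the count table as *RADIALIS*-like, 14 of them on chromosomes 1A and 1B. In *phyB*-null, 9 of the 15 were called lower than in WT and none higher, where 5.95% of all genes tested were called lower. The median log2 fold change over the list was -2.91, against 0.00 over all genes. In *phyC*-null, edgeR's quasi-likelihood test called none of the 15, near the 0.796% of all genes tested that it called in either direction. By that test, 6 were lower at an unadjusted p below 0.05, and DESeq2 called 2. The median was -0.32, against 0.06 over all genes. Without *phyC*-null replicate 3, 2 were called lower.
Tested directly against *phyC*-null, 8 of the 15 were called lower in *phyB*-null, where 2.02% of all genes tested were called lower. The study names the chromosome 6 and 7 pairs among the genes that changed in both mutants, so no contrast with the 15 genes is drawn from this. The 6 genes not called in *phyB*-null against WT had at most 22 counts over the WT libraries, and the 9 called genes had at least 41. Of the 15, 2 are named only in the study's tables of regulated genes, TraesCS1A01G419100 among them, and so were listed because they had changed.

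The most abundant of them, TraesCS1B01G449100, had 24.0, 10.9, 14.2 and 19.4 TPM in the *phyB*-null libraries, 104, 81.5, 53.7 and 61.4 TPM in the *phyC*-null libraries, and 125, 150, 116 and 84.6 TPM in WT. The *phyB*-null libraries lay below all others, and those of *phyC*-null and WT overlapped. Its log2 fold change was -2.70 for *phyB*-null over WT (adjusted p = 1.58e-06), -0.57 for *phyC*-null over WT (adjusted p = 0.123) and -2.11 for *phyB*-null over *phyC*-null (adjusted p = 0.000186), all by edgeR's quasi-likelihood test. TraesCS1A01G419000, on chromosome 1A, had 6.20 ± 4.25 TPM in *phyB*-null, 43.4 ± 12.6 TPM in *phyC*-null and 49.8 ± 8.72 TPM in WT, with the same separation of *phyB*-null from both others. TraesCS1B01G449200 had 1.68 ± 1.09 TPM in *phyB*-null, 28.4 ± 7.94 TPM in *phyC*-null and 45.4 ± 13.4 TPM in WT.
The largest changes in *phyB*-null were a log2 fold change of -4.89 for TraesCS1B01G449400 (0.589 ± 0.322 TPM in *phyB*-null, 19.0 ± 2.92 TPM in WT), -4.66 for TraesCS1B01G449200 and -4.09 for the low confidence model TraesCS1B01G750000LC (0.717 ± 0.240 TPM in *phyB*-null, 13.6 ± 3.66 TPM in WT). TraesCS1B01G449400 was the gene of these with the lowest level in *phyC*-null relative to WT, at 8.51 ± 1.56 TPM in *phyC*-null, without overlap and with a log2 fold change of -1.01 (adjusted p = 0.0351, edgeR's quasi-likelihood test). Identifiers TraesCS1B01G449000 to TraesCS1B01G449400 follow one another, so these genes are neighbours and may share reads that unique mapping removes.

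**Figure D4:**
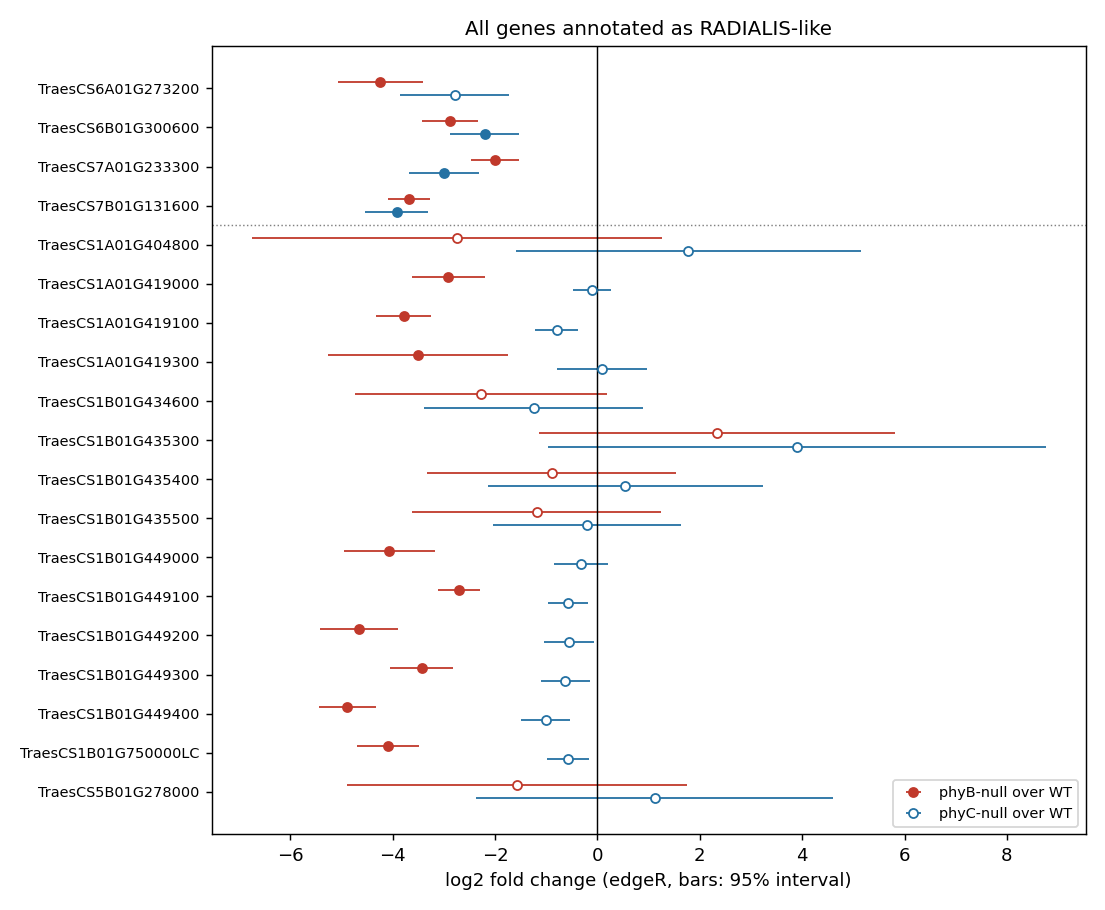
Log2 fold changes (horizontal axis) with 95% intervals of all 19 genes annotated as *RADIALIS*-like, for *phyB*-null over WT and *phyC*-null over WT, with the 4 genes of the chromosome 6 and 7 pairs above the dotted line. Filled circles were called at an adjusted p below 0.01. For the 4 genes both values lie at or below -2.0005. The 9 called genes of chromosomes 1A and 1B lie between -4.89 and -2.70 in *phyB*-null and between -1.01 and 0.09 in *phyC*-null. The study named the 4 as changed in both mutants, and the 9 are those called in *phyB*-null, so no contrast between them is drawn.

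Of 69 other genes that the study assigns to the MYB-related family, which holds the single-repeat MYB proteins, 7 were called lower and 8 higher in *phyB*-null than in WT, where 5.95% and 5.97% of all genes tested were. In *phyC*-null, edgeR's quasi-likelihood test called none of the 69, near the 0.796% of all genes tested that it called in either direction. By that test, 9 had an unadjusted p below 0.05. DESeq2 also called none of the 69 in *phyC*-null. Among genes averaging 1 CPM or more, the largest decreases in *phyB*-null were in TraesCS1B01G232300 (13.9 ± 2.31 TPM in *phyB*-null, 32.5 ± 3.30 TPM in WT, log2 fold change -1.12) and TraesCS6B01G266800 (17.2 ± 5.10 TPM in *phyB*-null, 30.0 ± 1.69 TPM in WT, log2 fold change -0.72). The largest increases were in TraesCS3B01G125500 (15.7 ± 2.03 TPM in *phyB*-null, 9.24 ± 2.45 TPM in WT, log2 fold change 0.87) and TraesCS5B01G415100LC (9.28 ± 1.68 TPM in *phyB*-null, 5.66 ± 0.587 TPM in WT, log2 fold change 0.82). Less abundant genes of the list are left out by that level, among them TraesCS2B01G478700, named after its values were seen, with 158 counts over the *phyB*-null libraries and 8 over the WT libraries.

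Genes whose profile over the 12 libraries was most like that of each *RADIALIS*-like gene were ranked by the Pearson correlation of log2 CPM among the 36746 genes that averaged 1 CPM or more. For TraesCS6A01G273200 and TraesCS6B01G300600, the 3 genes at the top of each ranking included TraesCS5A01G070500, annotated as a nucleobase-ascorbate transporter (0.976 and 0.962), and TraesCS1A01G076900, which carries no descriptive name (0.964 and 0.965). TraesCS1A01G076900 was at 7.51 ± 1.82 TPM in *phyB*-null, 15.3 ± 1.97 TPM in *phyC*-null and 71.2 ± 9.44 TPM in WT. The remaining genes of these rankings were TraesCS3A01G242800LC for TraesCS6A01G273200 (0.972) and TraesCS4B01G200500 for TraesCS6B01G300600 (0.976).
For TraesCS7A01G233300 the top gene was the low confidence model TraesCS7B01G207800LC (0.980), followed by TraesCS2A01G022700 (0.967), annotated as an adaptor of the Clp protease, and TraesCSU01G560900LC (0.962). For TraesCS7B01G131600 the top genes were TraesCS7B01G265700 (0.974), annotated as a sulfotransferase, the MADS-box gene *FUL-A3* (TraesCS2A01G174300, 0.973) and TraesCS2B01G287500LC (0.972). *FUL-A3* had 0.0296 ± 0.0193 TPM in *phyB*-null, 0.0281 ± 0.0273 TPM in *phyC*-null and 10.4 ± 5.004 TPM in WT. *FUL-A3* averages more than 1 CPM only through WT, and so does TraesCS3A01G242800LC. The latter had 0 TPM in *phyB*-null, 0.101 ± 0.158 TPM in *phyC*-null and 6.88 ± 0.513 TPM in WT. TraesCS7B01G265700 was also low in the mutants, at 0.868 ± 0.332 TPM in *phyB*-null, 0.955 ± 0.272 TPM in *phyC*-null and 59.1 ± 9.42 TPM in WT. With a prior count of 0.5 in place of 2, *FUL-A3* was no longer among the top 3 of TraesCS7B01G131600, nor was TraesCS1A01G076900 among those of TraesCS6A01G273200. All these correlations include the difference between genotypes and carry no p.

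The genes next to the 4 on the chromosomes, by the order of identifiers, were examined in the same fits. Of the 8 nearest high confidence genes that were tested, 1 on each side of each gene, 1 was called in *phyB*-null against WT, a share near the 11.9% of all genes. This gene, TraesCS7B01G131700, had a log2 fold change of -0.59 (adjusted p = 0.00881, edgeR's quasi-likelihood test), against -3.68 for its neighbour TraesCS7B01G131600. Of all genes tested, 5.95% were called lower and 5.97% higher in *phyB*-null than in WT. Among the 24 genes within 3 places of the 4, 6 were called in *phyB*-null, 1 lower and 5 higher. The largest of these changes, named after its values were seen, was that of TraesCS7B01G131800, which follows TraesCS7B01G131700 and averaged 19.2 TPM in *phyB*-null, 2.42 TPM in *phyC*-null and 2.03 TPM in WT (log2 fold change 3.35 for *phyB*-null over WT, adjusted p = 1.19e-08, edgeR's quasi-likelihood test). In *phyC*-null against WT, the smallest adjusted p of the 8 nearest was 0.268 by the same edgeR test. The genes directly before and after TraesCS6A01G273200, which are TraesCS6A01G273100 and TraesCS6A01G273300, had log2 fold changes of 0.11 and 0.39 in *phyB*-null and 0.11 and 0.23 in *phyC*-null.

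Depth and tissue markers were compared between genotypes beside these results. Counts summed to between 37365465 and 58944135 per library, and no replicates agreed within sampling noise (chi-square over degrees of freedom of 9.89 or more). *phyC*-null replicate 3 stood apart, with the lowest TMM factor (0.761) and the highest share of counts in its 100 most abundant genes (31.4%). The 7 leaf photosynthesis genes (chlorophyll a-b binding proteins and the small subunit of Rubisco) summed to 10128 to 18336 TPM in *phyB*-null, 7097 to 27603 TPM in *phyC*-null and 8858 to 16332 TPM in WT, and edgeR's quasi-likelihood test called none against WT (unadjusted p below 0.05 for 3 lower and 1 higher in *phyB*-null and for 1 lower in *phyC*-null). The 4 Rubisco genes make up most of the sum. The 3 chlorophyll a-b binding genes are the ones at an unadjusted p below 0.05 and lower in *phyB*-null, with means of 42.1 TPM in *phyB*-null and 249 TPM in WT for TraesCS1A01G403800, 49.7 TPM in *phyB*-null and 266 TPM in WT for TraesCS1B01G433300, and 0.337 TPM in *phyB*-null and 3.09 TPM in WT for TraesCS1B01G388300. The part of these genes in the results was not tested.
Genes listed as markers of other tissues that a leaf sample could hold were also summed. The 8 *KNOTTED1*-like genes summed to 132 to 195 TPM in *phyB*-null, 130 to 246 TPM in *phyC*-null and 150 to 203 TPM in WT, with 4 of the 8 never above 1 TPM, and none was called against WT by edgeR's quasi-likelihood test (1 at an unadjusted p below 0.05 in each mutant). The other 4 *KNOTTED1*-like genes carry nearly all of that sum, with genotype means of 20.4 to 91.0 TPM. They are TraesCS6A01G145500, TraesCS6B01G173900, TraesCS7A01G511800 and TraesCS7B01G423100. The sum therefore cannot be read as an amount of shoot apex in the samples. The 9 floral organ MADS-box genes summed to 15.0 to 21.7 TPM in *phyB*-null, 9.20 to 10.6 TPM in *phyC*-null and 11.2 to 16.2 TPM in WT. Of these 9, 3 were higher in *phyB*-null and 2 lower in *phyC*-null at an unadjusted p below 0.05 by edgeR's quasi-likelihood test. Against the 5.97% of all genes called higher in *phyB*-null, 1 of the 9 was called, TaSTK-A2 (TraesCS1A01G262700, 1.12 ± 0.296 TPM in *phyB*-null, 0.0796 ± 0.0298 TPM in WT), and the 3 *AGAMOUS*-like genes stayed below 1 TPM in every library. Most of the floral sum came from 2 other genes of that list. TraesCS1A01G264300 averaged 12.2 TPM in *phyB*-null, 6.60 TPM in *phyC*-null and 8.67 TPM in WT. TraesCS1B01G275000 averaged 4.49 TPM in *phyB*-null, 2.77 TPM in *phyC*-null and 4.46 TPM in WT. The part of these markers in the levels of the *RADIALIS*-like genes was not tested.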

How the data were processed

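Single-end reads of 100 bp were aligned by the authors to the IWGSC RefSeq v1.0 assembly using GSNAP, and htseq-count gave the number of uniquely aligned reads per gene model, of high or low confidence. They deposited raw counts, without normalization, for the 72120 genes that reached 3 counts in some library, and TPM for 190459 models. The strand setting of the counting is not given in the sources used here.

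Pairwise comparisons of genotypes (8 libraries each) used the deposited counts and edgeR 4.0.16 (TMM factors, quasi-likelihood test; R 4.3.3) over all genes, with calls at an adjusted p below 0.01. Fold changes are mutant over WT, or *phyB*-null over *phyC*-null. Shares of homeologs were computed from deposited TPM. The alternatives were DESeq2 1.42.0, DESeq2 with edgeR's exact test, other scaling, filtering and thresholds, a block for the replicate number, a single fit of all genotypes, limma 3.58.1 on log2(TPM + 1) or log2(TPM + 0.1), and leaving out each library.

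The genes and lists were chosen with earlier results of these data known. Named beside the 4 genes were, by rule, of the other *RADIALIS*-annotated genes the 3 most abundant and the 3 with the largest called changes per comparison with WT, of the MYB-related genes averaging at least 1 CPM the 2 largest called changes per direction and comparison with WT, the 3 most alike genes per member (log2 CPM, prior count 2) and the nearest neighbours. Family annotations come from the study's tables, which were read in part. No sequence or coordinate is given, as no reference of this build was used here. Libraries were sequenced on 2 lanes, each with 2 replicates of every genotype, and which replicates shared a lane is not given in the sources used here.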

Additional observations from a re-analysis of the deposited data

Results flagged for a closer look

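For TraesCS6B01G300600, WT replicate 2 had 31.2 TPM, far from the other WT libraries (18.1 to 20.2 TPM), with a gap of 0.843 of the range in that group, above the 95% critical value of Dixon's test. About 1 in 20 such groups passes it by chance, and this was 1 of 18 groups examined. The effects of the phytochrome mutations differed when *phyB*-null was tested directly against *phyC*-null (edgeR's quasi-likelihood test, called at an adjusted p below 0.01) for 5 named *RADIALIS*-annotated genes outside the chromosome 6 and 7 pairs. The log2 fold change of *phyB*-null over *phyC*-null was -2.80 for TraesCS1A01G419000, -2.11 for TraesCS1B01G449100, -4.09 for TraesCS1B01G449200, -3.87 for TraesCS1B01G449400 and -3.51 for TraesCS1B01G750000LC. These 5 genes were listed because that test called them, where 2.02% of all genes tested were called lower. The separation of their *phyB*-null from their *phyC*-null libraries therefore adds no support.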

How the results depend on the processing

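Under the 18 other settings, the calls of all 4 genes in *phyB*-null and of the chromosome 7 pair in *phyC*-null were kept, and no fold change of the 4 genes against WT changed sign. The looser threshold of 0.05, applied to the same fit, could not lose a call. For *phyC*-null against WT, the log2 fold change of TraesCS6A01G273200 passed the threshold with DESeq2 (-2.81), when both DESeq2 and edgeR's exact test had to call it (-2.78), with library size alone (-2.93), with all genotypes in one fit (-2.79), with an adjusted p below 0.05 (-2.79) and with limma on log2(TPM + 1) (-2.35), and ranged from -3.63 to -2.51 with 1 library left out. That of TraesCS6B01G300600 ranged from -2.44 to -1.96. A filter on low counts (filterByExpr) removed TraesCS6A01G273200 from *phyB*-null against *phyC*-null, so it has no value there.

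Other *RADIALIS*-annotated genes called lower in *phyC*-null numbered 2 with DESeq2, and 1 each with both tools, library size alone or an adjusted p below 0.05 (0 to 2 with 1 library left out). Of the other MYB-related genes, those called lower in *phyB*-null than in WT numbered 7, but 14 with DESeq2 or an adjusted p below 0.05, and 2 to 6 with 1 library left out (2 without *phyB*-null replicate 3). Those called higher numbered 8, but 4 with limma at either pseudocount and 3 to 7 with 1 library left out (3 without WT replicate 2). In *phyB*-null against *phyC*-null, 2 were called lower and 0 higher by edgeR's quasi-likelihood test (14 and 7 at an unadjusted p below 0.05). That is 2.90% of the list, near the 3.41% of all genes tested that were called. The genes called lower and higher numbered 8 and 2 with DESeq2, 7 and 1 in one fit, 9 and 2 at an adjusted p below 0.05, and 1 and 1 with limma at either pseudocount. The number higher was 2 with both tools and 1 with filterByExpr. With 1 library left out, 1 to 4 were lower and 0 to 1 higher (4 and 1 without *phyC*-null replicate 3).

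The B shares kept their direction as shares of counts and as log2 ratios. With 1 library left out, the difference in share from WT was 14.8 to 19.2 percentage points (*phyB*-null) and 5.76 to 13.6 (*phyC*-null) for the chromosome 6 pair, and -31.9 to -24.3 and -17.8 to -13.7 for the chromosome 7 pair. Between *phyB*-null and *phyC*-null it was 3.61 to 11.4 and -16.4 to -8.73. By Spearman correlation, 0 or 1 of the 3 most alike genes of each member was retained, and with a prior count of 0.5, 2 or 3.

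The replicate numbers were not taken as pairs. Deviations of same-numbered libraries correlated from -0.320 to 0.008 (*phyB*-null and WT), -0.038 to 0.223 (*phyC*-null and WT) and -0.532 to 0.550 (*phyB*-null and *phyC*-null). Of the 4 libraries of the first genotype, 0, 2 and 2 were nearest to their own number in these comparisons. This check cannot show whether libraries of different numbers shared a lane. With the replicate number as a block, TraesCS6A01G273200 was called in *phyC*-null (log2 fold change -2.99, adjusted p = 0.00905, edgeR's quasi-likelihood test), other MYB-related genes called numbered 2 lower and 3 higher in *phyB*-null against WT and 1 lower in *phyB*-null against *phyC*-null, and no other call of the 4 genes changed. In *phyB*-null, depth limits TraesCS6A01G273200 most, with 2 to 11 counts per library.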
